A study of Mus musculus with 2 samples.

Results

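The vascular miRNA genes Mir126a, Mir126b, Mir143, Mir145a and Mir145b were examined in the left cerebral cortex. The mice were B6CASTF1/J, an F1 cross of C57BL/6J with CAST/EiJ. These 5 genes were taken by symbol from the 2202 annotated miRNA genes of GENCODE M21. The rule uses no measured value, but the genes were chosen with earlier results of these data known. The animals were adults of 18 to 20 months, and no treatment or genotype other than the hybrid background is recorded. The labels give 1 group of 2 biological replicates, each with 1 library of total RNA selected for RNA below 30 nucleotides. Sex is labelled female in 2 fields and male in the free text. The libraries share a donor identifier and differ in biosample identifier, so the spread between them may be technical. Whole cortical tissue was used, so every level is an average over the vessels, neurons and glia in the piece.

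MiRNAs are short RNAs cut from a hairpin precursor, and they repress messenger RNAs that pair with their seed, bases 2 to 8 of the mature strand. MiR-126 is known as the miRNA of endothelial cells, the inner lining of vessels; it is processed from an intron of Egfl7, an endothelial gene, and is known to raise VEGF signalling by repressing the inhibitor Spred1. It is also found in platelets and blood-forming cells. MiR-143 and miR-145 are transcribed together in smooth muscle cells and pericytes, the mural cells that wrap vessels, and are known to favour the contractile state of smooth muscle, in part through repression of Klf4 by miR-145. In cortex, endothelial cells and pericytes form the capillary wall and smooth muscle surrounds the arterioles.

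The Mir126a and Mir126b hairpins are shown because they are the same stretch of DNA read on its opposite strands, which decides how their reads were counted. Mir126a (ENSMUSG00000065540.1) lies at chr2:26591357-26591429 on the plus strand of mm10, and Mir126b (ENSMUSG00000105799.1) at chr2:26591363-26591420 on the minus strand. Both lie within the bounds of Egfl7, on its strand for Mir126a. Of the 9 Egfl7 transcripts that span Mir126a, 8 have it in an intron and 1 has an exon that overlaps it. It also lies in an intron of the protein-coding gene Gm20532 on the same strand. In the hairpins below, capitals mark the mature miRNAs listed by RefSeq (GRCm38.p6), and in the mature miRNAs they mark the seed.
Mir126a hairpin: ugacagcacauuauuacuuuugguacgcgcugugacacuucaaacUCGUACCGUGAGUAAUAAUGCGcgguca
Mir126b hairpin: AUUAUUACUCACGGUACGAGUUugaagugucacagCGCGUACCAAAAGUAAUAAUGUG
mmu-miR-126a-3p: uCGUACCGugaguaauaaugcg
mmu-miR-126b-5p: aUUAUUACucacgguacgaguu
mmu-miR-126b-3p: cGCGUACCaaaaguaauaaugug

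The Mir126b hairpin of 58 bases is the exact reverse complement of positions 7 to 64 of the Mir126a hairpin of 73 bases. MiR-126a-3p occupies positions 46 to 67 and miR-126b-5p the complement of positions 43 to 64, so 19 bases of each pair with the other. The seeds of miR-126a-3p, miR-126b-5p and miR-126b-3p differ from each other, and each is held by that 1 entry among the 1738 mature entries of the RefSeq table. The RefSeq table matched 2 of the 5 genes. It holds no sequence for miR-126a-5p, the other arm of Mir126a, which is therefore neither marked nor compared here. The deposited counts are per hairpin gene, so the arms of a hairpin could not be told apart.

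**Figure D1:**
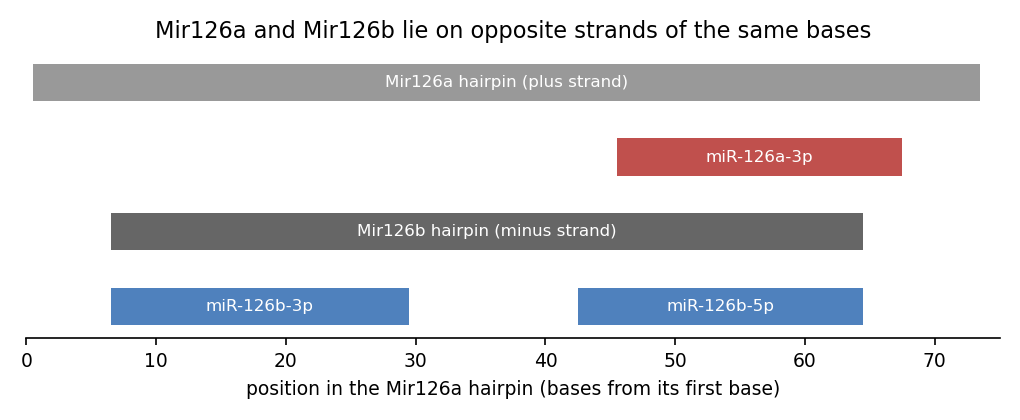
Bars give the extent of both hairpins and of their mature miRNAs in the RefSeq table, which lacks miR-126a-5p. The x axis is the position in the Mir126a hairpin in bases. The Mir126b bar runs from 7 to 64, inside the Mir126a bar, and miR-126a-3p lies across from miR-126b-5p.

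Mir143 (ENSMUSG00000065445.3) lies on the minus strand of chromosome 18 at 61649196 to 61649258, and Mir145a (ENSMUSG00000065592.2) on the same strand at 61647825 to 61647894, with 1301 bases between them. Neither overlaps another annotated gene in GENCODE M21. Carmn, a long non-coding RNA gene known from heart and smooth muscle, ends 366 bases before Mir143 on that strand. Mir145b (ENSMUSG00000098366.1) lies apart from this cluster at 69022199 to 69022273 on chromosome 18, 7374304 bases from Mir145a, and overlaps no other annotated gene. No other miRNA gene overlaps any of the 5 or lies within 10 kb of them. The longest stretch shared on the same strand with any of the other 2201 miRNA genes was 11 bases for Mir126a and for Mir143, and 17 bases between Mir145a and Mir145b.

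Levels are CPM, the sense count of a gene per 1000000 sense counts of all miRNA genes. Replicate 1 held 5166667 sense counts and replicate 2 held 4459993. Reads outside these counts were 65.2% of the total in replicate 1, against 65.1% in replicate 2, and multimapping reads, which have several places in the genome, were 41.8% and 46.4% of it. A gene counts as expressed where both libraries reach 2 CPM, as 409 of the 2202 genes did, and the median level of those was 88.9 CPM. Of the neuron markers, 5 of 8 genes were expressed, and the list summed to 36750 CPM in replicate 1 against 32334 CPM in replicate 2. Its 3 genes of miR-124 had at most 21 counts. They are copies of each other and multimapping reads are not counted, so their low counts do not show that miR-124 was absent.

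Mir126a, Mir143 and Mir145a were expressed in both libraries, and Mir126b and Mir145b were not. Together the 5 genes held 2.63% of sense counts in replicate 1, against 2.03% in replicate 2. Mir126a, the endothelial gene, was the highest of the 5 in both libraries. Mir143 followed, Mir145a was far below Mir143, and Mir145b was at the edge of detection.

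Mir126a had 109825 counts in replicate 1 and 46431 in replicate 2, or 21257 CPM and 10411 CPM. These are 2.13% of sense counts in replicate 1 (95% exact binomial interval 2.11% to 2.14%) and 1.04% in replicate 2 (1.03% to 1.05%). Its mean was 15834 ± 7669 CPM (SD, n = 2), which placed it at rank 14 of 2202, at rank 11 in replicate 1 and rank 18 in replicate 2. Ranks and shares hold among counted reads only, as multimapping reads are not counted. The intervals cover counting error only and are far narrower than the distance between the libraries. In the order of mean levels its neighbours were Mir128-1 above it, at 17218 ± 4441 CPM, and Mir99a below it, at 15808 ± 773 CPM (SD, n = 2 each). Neither neighbour differed from Mir126a by more than its spread, and 15 other expressed genes had a mean within 1 SD of that of Mir126a.

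Mir143 had 25137 counts in replicate 1 and 40810 in replicate 2, or 4865 CPM and 9150 CPM. Its mean was 7008 ± 3030 CPM (SD, n = 2), rank 28, with rank 42 in replicate 1 and rank 22 in replicate 2. Its neighbours in the order were Mir149 at 7839 ± 6382 CPM and Mir411 at 6859 ± 1245 CPM (SD, n = 2 each), both within the spread. Replicate 2 was the higher library for Mir143, the opposite of Mir126a.

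Mir145a, transcribed from the same cluster, had 1094 counts in replicate 1 and 3326 in replicate 2, or 212 CPM and 746 CPM. Its mean was 479 ± 378 CPM (SD, n = 2), rank 120, with rank 167 in replicate 1 and rank 101 in replicate 2. Replicate 2 was again the higher library. The level of Mir145a is the least settled of the 3 expressed genes, since 100 other expressed genes had a mean within 1 SD of its own.

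Mir145b, a second gene of the miR-145 name, had 2 counts in replicate 1 and 4 in replicate 2. Its level was 0.387 CPM in replicate 1 (95% exact Poisson interval 0.047 to 1.40 CPM) and 0.897 CPM in replicate 2 (0.244 to 2.30 CPM). The libraries could not be told apart at this depth, with a ratio of replicate 1 to replicate 2 of 0.432 (95% exact interval 0.039 to 3.01).

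Mir126b had 0 sense counts in both libraries, so that with a limit of 3 counts its level lies below 0.581 CPM in replicate 1 and below 0.673 CPM in replicate 2. The minus strand of this locus therefore gave no counted read beside 109825 and 46431 reads of the plus strand. Reads of miR-126b with several places in the genome, if any, are not in these counts.

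**Figure D2:**
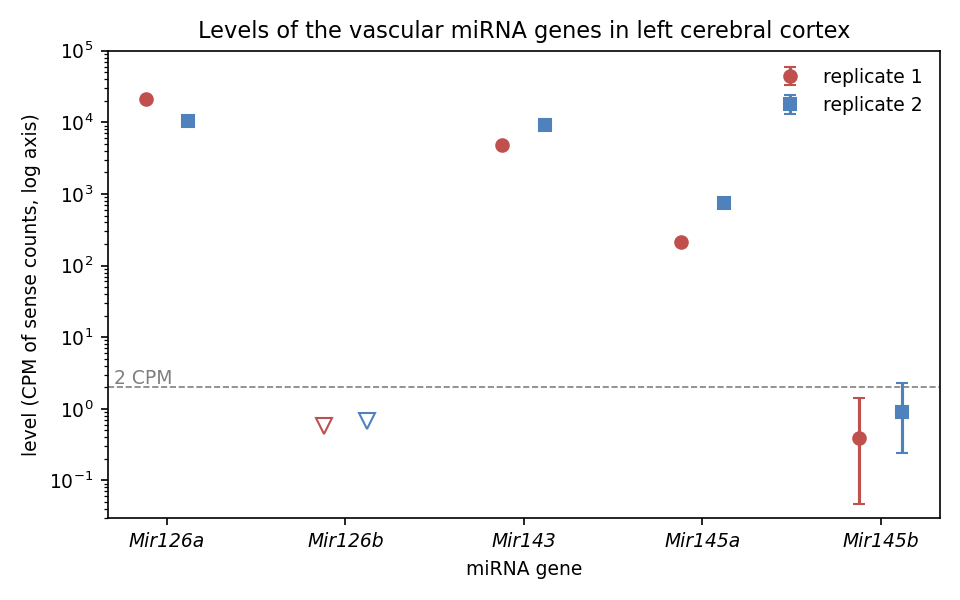
Points give the level of each gene in replicate 1 (circles) and replicate 2 (squares) in CPM of sense counts on a log axis, with 95% exact Poisson intervals that are hidden by the points for the 3 expressed genes. Open triangles mark the limit that a count of 0 allows for Mir126b, at 0.581 and 0.673 CPM, and the dashed line is the threshold of 2 CPM; Mir126a was higher in replicate 1 and Mir143 and Mir145a were higher in replicate 2.

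The balance between the endothelial and the mural gene differed between the libraries, a measure that does not depend on how the libraries are scaled. Mir126a had 4.37 times the counts of Mir143 in replicate 1 (95% exact interval 4.31 to 4.43) and 1.14 times in replicate 2 (1.12 to 1.15). Per base of the annotated hairpin, the ratio of levels was 3.77 in replicate 1 and 0.982 in replicate 2, so in replicate 2 the order of these genes depends on whether length is taken into account. A read here is a whole short RNA, so the counts were not divided by length elsewhere. Within the cluster, Mir143 had 23.0 times the counts of Mir145a in replicate 1 (21.6 to 24.4) and 12.3 times in replicate 2 (11.8 to 12.7), or 25.5 and 13.6 times per base. The efficiency with which each miRNA is captured in a library was not measured, so ratios between genes hold for these libraries.

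Set against the other expressed genes, the difference of Mir126a between the libraries was moderate and that of Mir145a was among the larger ones. Mir126a had a log2 CPM ratio of replicate 1 to replicate 2 of 1.03, or 2.04-fold (95% exact interval 2.02 to 2.06). The log2 ratio was -0.91 for Mir143 and -1.82 for Mir145a, which was 3.52 times as high in replicate 2 (3.29 to 3.77). With 1 library on each side these are differences between libraries and not a test of a condition. Across the 409 expressed genes the median log2 ratio was 0.17, the 5th percentile was -1.05 and the 95th was 1.92.

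Of these genes 25.4% differed over 2-fold in either direction, with 19.8% higher in replicate 1 and 5.62% higher in replicate 2. Mir126a and Mir145a were past 2-fold and Mir143 was not. Of the expressed genes, 75 were higher in replicate 1 by more than Mir126a. On the other side, 28 were higher in replicate 2 by more than Mir143, and 7 by more than Mir145a. The edgeR common coefficient of variation between the libraries was 44.9% over 404 genes.

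The 2-fold call of Mir126a and of Mir143 turned on the scaling. TMM moved every log2 ratio by -0.19 and DESeq2 size factors by -0.20, which put Mir126a at 0.84 and 0.83, within 2-fold, and Mir143 at -1.10 and -1.11, past it. Under TMM 24.4% of expressed genes were past 2-fold, 15.4% towards replicate 1 and 9.05% towards replicate 2, and under DESeq2 size factors 24.0%, 14.7% and 9.29%. The direction of Mir126a, Mir143 and Mir145a was the same under each of these scalings.

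**Figure D3:**
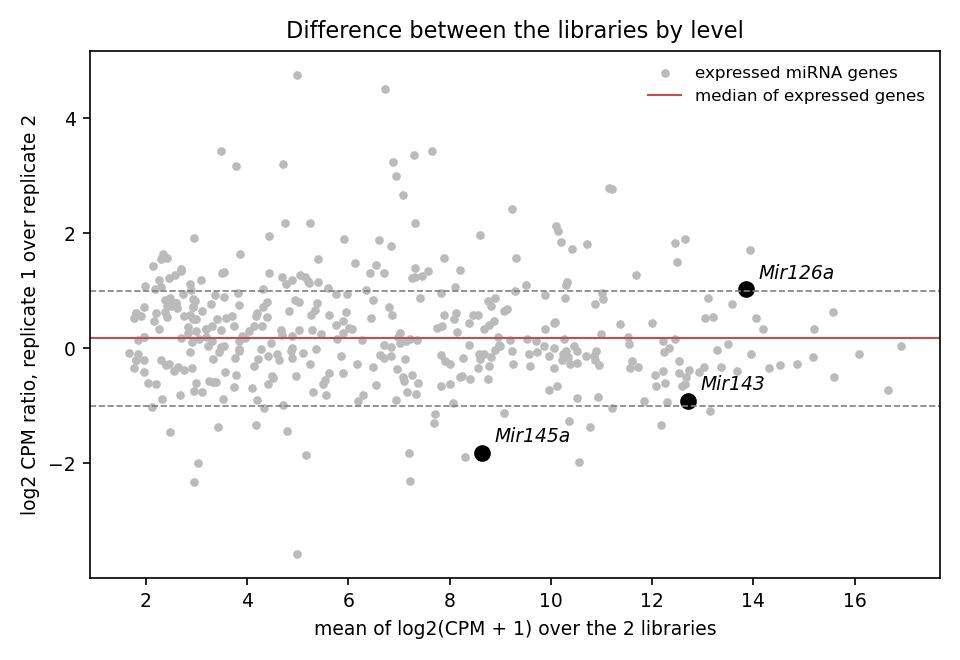
Each point is 1 of the 409 expressed miRNA genes, with the mean of log2(CPM + 1) over both libraries on the x axis and the log2 CPM ratio of replicate 1 to replicate 2 on the y axis. Dashed lines mark 2-fold and the solid line the median of 0.17; Mir126a sits at 1.03, Mir143 at -0.91 and Mir145a at -1.82.

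Mir143 and Mir145a, which share a cluster, were both higher in replicate 2. Among 105 adjacent pairs of expressed miRNA genes on the same strand at most 10 kb apart, 57 had ratios of the same sign and 23 were both higher in replicate 2. As 48 of these pairs lie on chromosome 12 and many share a gene, the pairs are not independent. The log2 ratios of Mir143 and Mir145a differed by 0.91, against a median of 0.76 over all pairs, and 46 pairs differed by more. The gap in level between Mir143 and Mir145a was 4.52 in replicate 1 and 3.62 in replicate 2 on the log2 CPM scale, against medians of 3.31 and 2.72. In replicate 1 the gap was wider in 36 pairs and in replicate 2 in 41.

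**Figure D4:**
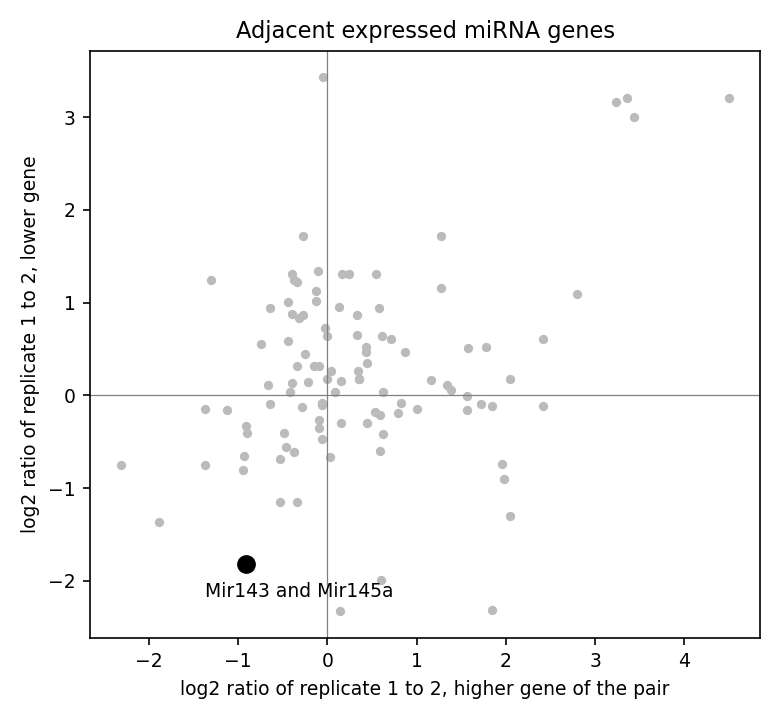
Each point is 1 of the 105 adjacent pairs of expressed miRNA genes, with the log2 CPM ratio of replicate 1 to replicate 2 of the higher gene on the x axis and of the lower gene on the y axis. The pair of Mir143 and Mir145a, at -0.91 and -1.82, lies in the quadrant where both genes are higher in replicate 2, which holds 23 pairs.

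The genes nearest to each member were found by distance on log2(CPM + 1) over both libraries. For Mir126a these were Mir128-1 (distance 0.44), a neuronal miRNA, Mir328 (0.44) and Mir125a (0.49). Mir125a had 28207 CPM in replicate 1, against 8601 CPM in replicate 2. For Mir143 they were Mir137 (0.21), a regulator of neuronal maturation, Mir382 (0.25) and Mir674 (0.29). Mir137 had 5203 CPM in replicate 1, against 8033 CPM in replicate 2. For Mir145a they were Mir34c (0.48), Mir322 (0.78) and Mir181a-1 (0.92). Mir34c, a miRNA of ciliated epithelium, had 163 CPM in replicate 1, against 604 CPM in replicate 2. The members were not each other's nearest genes: 28 expressed genes were nearer to Mir126a than Mir143 was, and 126 were nearer to Mir143 than Mir145a was. This likeness rests on 2 libraries and says no more than that the levels are close.

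Markers of other cells that vessels or blood could bring in were read beside the vascular genes. In bulk tissue, fewer cells of a type and less RNA per cell cannot be told apart. The 4 red cell genes, of which 3 were expressed, summed to 124 CPM in replicate 1, against 72.9 CPM in replicate 2, beside 21257 and 10411 CPM of Mir126a. Mir451a, the most abundant miRNA of red cells, had 47.0 CPM and 39.7 CPM, and Mir144 had 32.1 CPM and 13.0 CPM. Mir486, another red cell miRNA, had 43.0 CPM and 18.8 CPM, and Mir3107 on its opposite strand did not reach the threshold. The 3 expressed genes were higher in replicate 1, the same side as Mir126a. For Mir451a the log2 ratio was only 0.245, against a median of 0.17 over all expressed genes. Mir144 and Mir451a are neighbours 99 bases apart, so the 3 genes are not independent. By CPM 2 of them, Mir144 and Mir486, were past 2-fold, beside 19.8% of all expressed genes. With DESeq2 size factors 1 of them, Mir144, was past 2-fold, beside 14.7% of all expressed genes. The part of the red cell genes in the level of Mir126a was not tested.

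The list of platelet, leukocyte and microglia genes, expressed in all of its 6 genes, summed to 1941 CPM in replicate 1, against 2008 CPM in replicate 2. Its member Mir223, a miRNA of myeloid cells and platelets, had 13.4 CPM and 27.6 CPM, from 69 and 123 counts. Mir223 was thus higher in replicate 2, the side opposite to Mir126a, as were Mir142, Mir146, Mir146b and Mir155. Mir150, of lymphocytes, was the highest gene of the list at 1220 ± 92.8 CPM (SD, n = 2). It had 1286 CPM in replicate 1 against 1154 CPM in replicate 2, the side of Mir126a. The fibroblast and meninges list rested on Mir214, with 78.2 CPM in replicate 1 against 17.3 CPM in replicate 2. Its other genes, Mir199a-1, Mir199a-2 and Mir199b, had 0 counts in both libraries. Multimapping reads are not counted, so 0 counts at genes with copies, such as Mir199a-1 and Mir199a-2, do not show absence. Mir214 was higher in replicate 1, whereas the mural genes were higher in replicate 2.

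Of the striated muscle genes 2 of 9 were expressed, with Mir1a-1, Mir1a-2, Mir133a-1, Mir133a-2, Mir133b and Mir208b at 0 counts in both libraries. Mir1a-1 and Mir1a-2 are copies, as are Mir133a-1 and Mir133a-2. Multimapping reads are not counted, so 0 counts at these copies do not show absence. The list summed to 25.5 CPM in replicate 1, against 77.4 CPM in replicate 2, most of it the muscle miRNA Mir206, at 18.2 CPM and 65.5 CPM. The choroid plexus list summed to 726 CPM in replicate 1, against 1113 CPM in replicate 2, and 2 of its 4 expressed genes, the neighbours Mir34b and Mir34c, were past 2-fold towards replicate 2, beside 5.62% of all expressed genes. Its highest gene, Mir204, had 533 CPM and 467 CPM, and Mir449a had 22.3 CPM and 24.0 CPM. The epithelium list had 1555 CPM in replicate 1, against 398 CPM in replicate 2, with 6 of 7 genes past 2-fold towards replicate 1, the side of Mir126a, and 1, Mir203, towards replicate 2. Of all expressed genes 19.8% and 5.62% were past 2-fold on these sides. Among the 6 genes, Mir429, Mir200a and Mir200b are neighbours, as are Mir141 and Mir200c, so the 6 are not independent. The part of these lists in the differences of Mir126a, Mir143 and Mir145a was not tested.

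**Figure D5:**
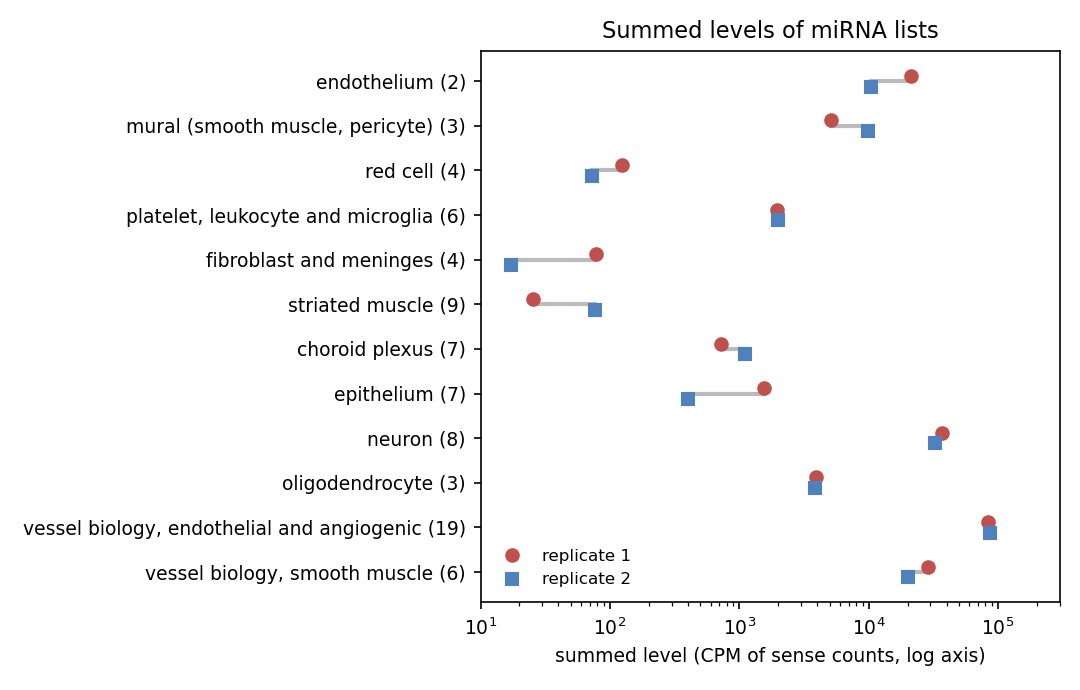
Each line joins the summed level of a miRNA list in replicate 1 (circle) and replicate 2 (square), in CPM of sense counts on a log axis, with the number of matched genes in brackets. The endothelium list, which is Mir126a, is 21257 and 10411 CPM, the mural list is 5077 and 9897 CPM, and the red cell list is 124 and 72.9 CPM.

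Of 25 other miRNAs known from vessel biology, 24 were expressed and Mir19a had 0 counts in both libraries. Their median log2 ratio of replicate 1 to replicate 2 was -0.21, against 0.17 over all expressed genes. By CPM 5 were past 2-fold towards replicate 1 and 3 towards replicate 2, beside 19.8% and 5.62% of all expressed genes. The balance turned with the scaling, to 3 and 6 under TMM and under DESeq2 size factors alike. The shares of all expressed genes moved the same way, to 15.4% and 9.05% under TMM and 14.7% and 9.29% under DESeq2 size factors. In the endothelial and angiogenic part Mir132, an activity-induced miRNA also known from new vessel growth, was the highest at 38067 ± 6199 CPM. Mir23b stood at 23713 ± 3368 CPM and Mir23a at 13181 ± 2570 CPM (SD, n = 2 each), and the mean of Mir126a lay between them. In replicate 2 Mir126a was below both, since Mir23b had 26094 CPM there and Mir23a 14998 CPM, and the gap between the means of Mir126a and Mir23a was inside the SD of Mir126a. Mir23a and Mir23b have nearly the same mature sequence, so their counts are uncertain. Mir92-1, of the miR-17 cluster, had 766 CPM in replicate 1, against 195 CPM in replicate 2. The other expressed genes of that cluster in the list were higher in replicate 2. Mir17 had 257 CPM in replicate 1 and 360 CPM in replicate 2, Mir18 9.48 and 12.6 CPM, and Mir20a 89.8 and 168 CPM. Mir210, the miRNA induced by low oxygen, had 115 CPM in replicate 1, against 30.7 CPM in replicate 2.

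In the smooth muscle part, Mir29a, a repressor of collagen genes, was the highest at 18699 ± 3113 CPM (SD, n = 2). Mir195a had 5954 CPM in replicate 1, against 859 CPM in replicate 2, and its cluster partner Mir497 had 1058 CPM and 495 CPM. Mir21a, which is known to rise in injured arteries of the rat, had 850 CPM and 2044 CPM. Mir21a was thus on the side of Mir143 and Mir145a, and Mir195a and Mir497 were on the side of Mir126a. Mir26a-1 had the widest difference of the list, with 8.71 CPM and 104 CPM, and its count is uncertain because Mir26a-2 is a copy. The smooth muscle part thus held genes past 2-fold on both sides, 2 of 6 in each direction by CPM, beside 19.8% and 5.62% of all expressed genes. Under TMM and under DESeq2 size factors 1 was past 2-fold towards replicate 1 and 2 towards replicate 2. The shares of all expressed genes were 15.4% and 9.05% under TMM, and 14.7% and 9.29% under DESeq2 size factors.

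How the strand was read decided whether miR-126 was seen at all. In the column counted without strand, Mir126a had 8 counts in replicate 1 and 0 in replicate 2, against 109825 and 46431 sense counts. Replicate 1 thus lost 109817 reads and replicate 2 lost 46431, or 27.1% and 14.1% of all reads that this column calls ambiguous. Among the 26 expressed genes that lie opposite another miRNA gene, Mir126a had the second highest sense count in both libraries, after Mirlet7e. Mir143, Mir145a and Mir145b have no opposite gene, and their counts without strand equalled their sense counts.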

How the data were processed

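Small RNA of left cerebral cortex was sequenced in 2 libraries of 1 group. The authors deposited read counts per miRNA gene, not normalized, in 1 table per library; per the file headers they use mm10 and GENCODE M21. No aligner or counter is named in the sources used here, and their settings are not known. Every table holds 1 unstranded and 2 stranded columns; the stranded column with the larger total was taken as sense. Totals leave out the 4 lines for reads without a gene. Identifiers matched the miRNA genes of GENCODE M21, which gave symbols and coordinates.

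CPM is the sense count per 1000000 sense counts. No test between conditions exists; intervals are exact 95% intervals (scipy 1.17.1) and cover counting error only. Spread and scaling used edgeR 4.0.16 (TMM, filterByExpr, estimateDisp) and DESeq2 1.42.0 size factors; the edgeR spread and the ratio between libraries were tested on simulated data. List names without a GENCODE symbol (4) were matched through RefSeq synonyms, a choice made after seeing the data, as were the scalings of list counts. Members and lists were chosen with earlier results of these data known. Named genes were the members, the 3 nearest expressed genes of each, their neighbours in the order of levels, genes overlapping or within 10 kb, and of each list the 3 highest or those past 2-fold; Mir451a and other markers are named as list members and Mirlet7e as the gene ahead of Mir126a, chosen after its value was seen. Alternatives were other scalings and denominators, the unstranded column, other thresholds and single libraries.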

Additional observations from a re-analysis of the deposited data

Results flagged for a closer look

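The antisense column, which enters no level above, held 109817 counts at Mir126b in replicate 1 and 46431 in replicate 2, above the limit of 3 counts that a count of 0 allows. Mir126a had 109825 and 46431 sense counts over the same bases, so replicate 2 gave equal numbers and replicate 1 differed by the 8 reads that the column without strand also keeps. A plus-strand read over the shared bases is antisense to Mir126b. These antisense counts are thus the reads of Mir126a and not a further signal. The antisense count was 0 in both libraries at Mir126a, Mir143, Mir145a and Mir145b.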

How the results depend on the processing

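With all reads as the denominator the mean level was 5515 CPM for Mir126a and 2443 CPM for Mir143, by construction, and their log2 ratios stayed within the counting interval. In the column without strand Mir126a averaged 0.840 CPM and its log2 ratio was at least 1.21, taking 3 counts for the 0 of replicate 2, because reads shared with Mir126b are not assigned there; its ratio to Mir143 could not be given. The log2 ratio of replicate 1 to replicate 2 under TMM and under DESeq2 size factors was 0.84 and 0.83 for Mir126a, -1.10 and -1.11 for Mir143, and -2.002 and -2.02 for Mir145a. Leaving out either library gave 10411 to 21257 CPM for Mir126a, 4865 to 9150 CPM for Mir143 and 212 to 746 CPM for Mir145a. It gave 1.14 to 4.37 for the ratio of Mir126a to Mir143, and 12.3 to 23.0 for Mir143 to Mir145a. The number of the 5 genes expressed was 3, or 4 with any count above 0 and 2 without strand. The share of expressed genes past 2-fold lay between 24.0% and 26.3% in the scalings and thresholds tried. With GENCODE symbols alone the red cell list summed to 79.2 CPM in replicate 1, against 52.7 CPM in replicate 2. By CPM 4 and 3 of the vessel miRNAs were then past 2-fold towards replicate 1 and replicate 2, beside 19.8% and 5.62% of all expressed genes. No paired analysis was possible because there is 1 group. Depth limits Mir145b and Mir126b only; for the other genes the spread between libraries is the limit.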
